A study of Mus musculus with 4 samples.

Results

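The cells described here are the non-traced (Tom−) basal keratinocytes of mouse back skin, split by whether they carried *Krt10* transcripts. A cell was counted as having *Krt10* when it held at least 0.5 *Krt10* UMIs per 1000 UMIs on genes, and as lacking it when it held fewer, where a UMI (unique molecular identifier) marks 1 captured RNA molecule. The classes were therefore chosen by the measured level of *Krt10*, which is left out of every result. Of the 161 wells of the series with at least 2000 gene UMIs, 68 were Tom− cells, and 20 of them had *Krt10* and 48 did not. All mice were 57 days old, female and carried Ivl-CreERT2 and R26-tdTomato. By the sample labels all had received tamoxifen at 10 µg per g of body weight 2 days before. The paper's methods give a higher dose. Tom+ (traced) cells were sorted for Tomato, which is switched on by Cre under the involucrin promoter, and Tom− cells for its absence. Recombination itself was not measured. The study used 2 mice. Live cells were sorted as CD49f+, LY6A+ and CD34-negative, captured on Fluidigm C1 chips with 96 wells each, and sequenced from the 5′ end, as 1 library of each sort in each of 2 capture runs. The sources used here do not say whether a run is 1 mouse.

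Keratinocytes of the interfollicular epidermis divide in the basal layer, where they are anchored to the basement membrane by hemidesmosomes and express the keratin pair KRT5 and KRT14. As they differentiate they switch to KRT1 and KRT10, strengthen their desmosomes, and leave for the spinous layer, which lies above. *Krt10* RNA in a basal cell is commonly read as an early sign of that switch.

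The class with *Krt10* held 11 of 20 cells in Tom− run 1 (55.0%, 95% Clopper-Pearson interval 31.5% to 76.9%) and 9 of 48 in Tom− run 2 (18.8%, 8.95% to 32.6%). These intervals, like all others given here, cover counting error only. Most cells lacking the transcript by this rule had none at all, with 0 *Krt10* UMIs in 6 of 9 and 33 of 39 cells. The 3 cells nearest above the cut-off held 0.62, 0.69 and 0.85 *Krt10* UMIs per 1000 in run 1 and 0.54, 0.57 and 0.68 in run 2, which is 2 to 4 molecules a cell. The 3 nearest below held 0.32, 0.32 and 0.20 in run 1 and 0.40, 0.34 and 0.28 in run 2, with 1 or 2 molecules. The level spread widely within the class, up to 13.8 per 1000 in run 1 and 8.94 in run 2. At or above 3 per 1000 lay 2 cells of run 1 and 3 of run 2.

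**Figure D1:**
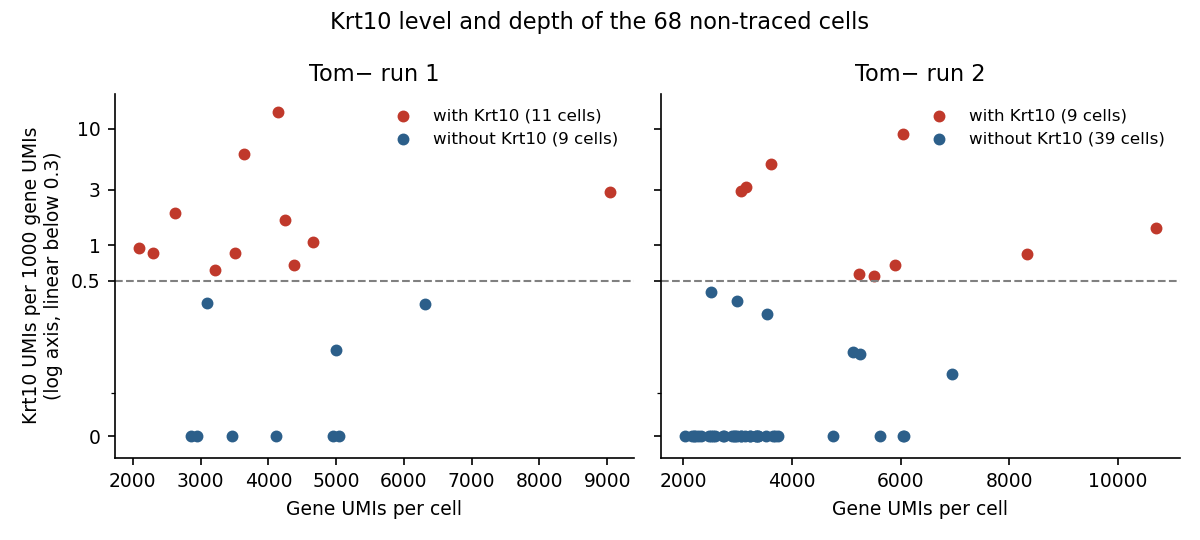
*Krt10* UMIs per 1000 gene UMIs (vertical log axis, linear below 0.3) against gene UMIs per cell (horizontal axis), 1 point a cell, for Tom− runs 1 and 2. The dashed line is the cut-off of 0.5 per 1000. In run 2 the cells with *Krt10* lie to the right, with a median of 5513 UMIs against 3064, whereas in run 1 their median of 3636 is below the 4118 of the others.

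Depth did not separate the classes in the same direction in both runs. Cells with *Krt10* had a median of 3636 gene UMIs in run 1 and 5513 in run 2, and cells without it 4118 and 3064. The summed counts behind each class were 43847 and 37783 UMIs with and without *Krt10* in run 1, and 51531 and 133047 in run 2. RNA of other cell types was sparse in both classes. Cells with at least 3 markers of a follicle, immune, pigment, dermal, vascular or Merkel cell list numbered 2 in each of the 4 class sums. That is 2 of 11 with and 2 of 9 without *Krt10* in run 1, and 2 of 9 with and 2 of 39 without in run 2. Infundibulum markers, led by *Krt17*, summed to 0.98 and 0.87 UMIs per 1000 with and without *Krt10* in run 1 and to 0.56 and 0.98 in run 2. Bulge markers summed to 0.52 and 0.29 per 1000 with and without *Krt10* in run 1 and to 0.25 and 0.44 in run 2, with Lgr5 at 0. The leading bulge marker was Sox9 with and Nfatc1 without *Krt10* in run 1, and Postn in both classes of run 2. T-cell markers were at 0 except in the cells without *Krt10* of run 2, at 0.27 per 1000. There 8 of the 10 T-cell markers were detected, with 36 UMIs, and 1 cell held at least 3 of them. At least 3 markers of the Langerhans list were in 1 cell with *Krt10* of run 1. *Cd34*, against which the sort selected, was at 0 UMIs in all 4 sums, and *Krt5* UMIs were present in all 68 cells. The part of these values in the results below was not tested, but the class test repeated without the cells with such markers called 24 genes, the 9 below among them.

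UMIs were summed per class and library, and the 4 sums were compared within the libraries by edgeR's quasi-likelihood test with the library as a block and Benjamini-Hochberg adjustment. The filter on low counts left 753 genes, of which 9 had an adjusted p under 0.05 (1.2% of the genes tested), 7 of them higher (0.93%) and 2 lower (0.266%) in cells with *Krt10*. The higher genes were *Krtdap*, *Krt1*, *Mt4*, *Dmkn*, *Gm94*, *Fam25c* and *Itm2b*, and the lower ones *Thbs1* and *Serpinb2*. All 9 went the same way in both runs. The 2 libraries left 1 residual degree of freedom. The p-values therefore rest mostly on 7.6 prior degrees of freedom, which edgeR borrows from the spread of all genes tested. The number of genes called ran from 0 to 26 over the other settings tried. It fell to 0 without the 5% of Tom− cells with the most UMIs, where 57 genes still had an unadjusted p under 0.05, and to 1 (*Krtdap*) with DESeq2's size factors.

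**Figure D2:**
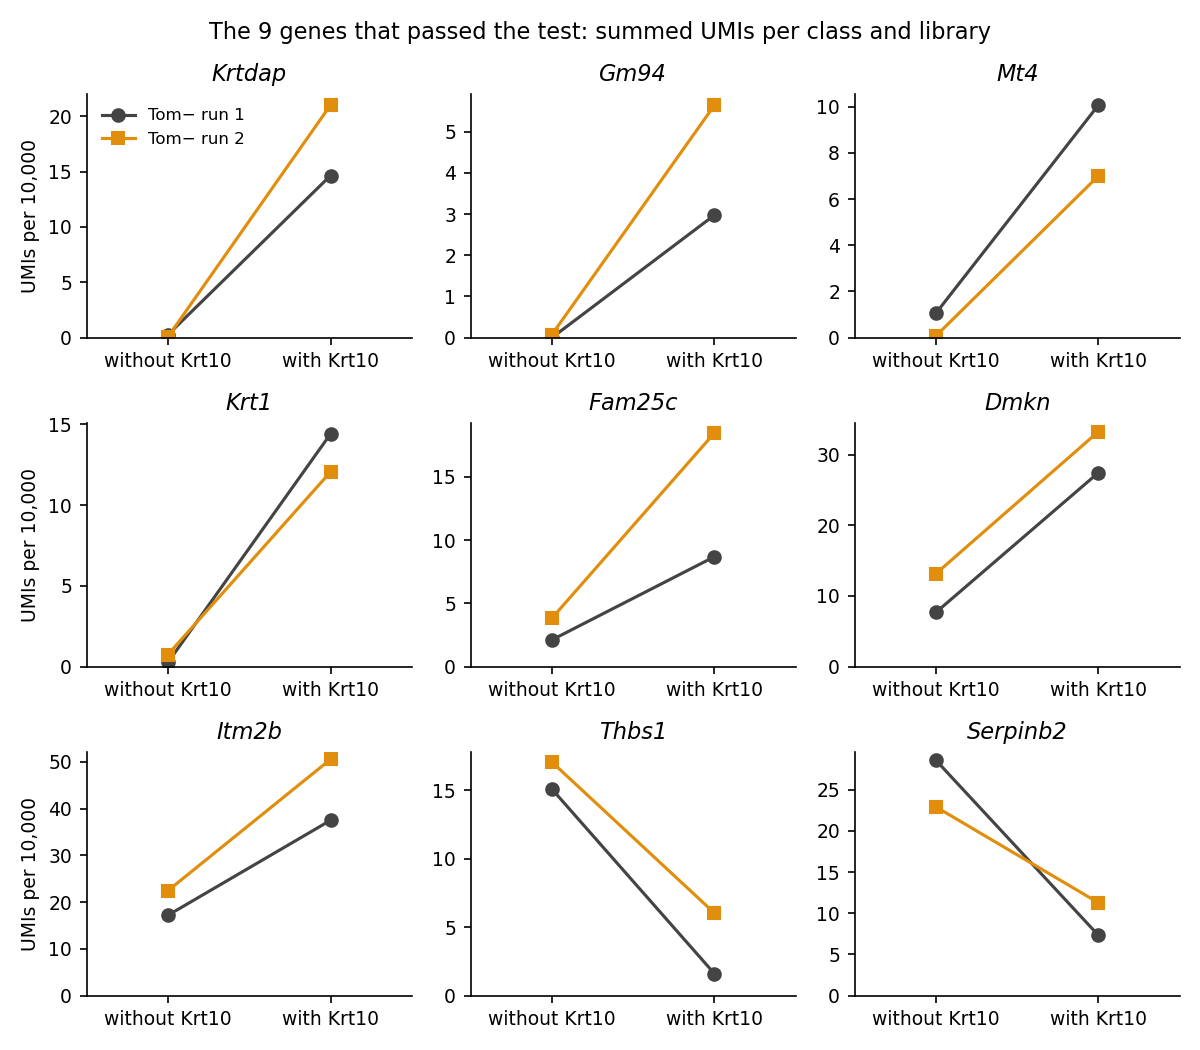
UMIs per 10,000 gene UMIs in the 4 class sums for the 9 genes that passed the test, with a line joining the class without *Krt10* to the class with *Krt10* of the same run. All vertical axes start at 0. *Krtdap* has 14.6 with *Krt10* in run 1 and 21.0 in run 2 and is at 0.26 and 0.08 without it, while *Thbs1* has 1.60 and 6.03 with *Krt10* and 15.1 and 17.1 without.

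Of the 7 genes that rose, 4 belong to the spinous programme. *Krtdap*, which encodes a small secreted protein of differentiating keratinocytes, had 64 UMIs with and 1 without *Krt10* in run 1, and 108 with and 1 without in run 2. Per UMI sequenced this is a ratio of 55.3 (exact 95% counting interval 9.58 to 2218) in run 1 and of 279 (49.1 to 11140) in run 2. The fitted log2 fold change was 7.06 (SE 0.56, adjusted p = 0.00055 from edgeR). A single cell gave 67.2% of the UMIs in the class with *Krt10* of run 1 and 48.1% of those in run 2. *Krtdap* was thus almost silent in both classes without *Krt10*, and carried by few cells where it was present: after each cell was thinned to 2000 UMIs it was seen in 3 of 11 and 5 of 9 cells with *Krt10*, against 0 of 9 and 1 of 39 without. Without thinning, the counts were 3 and 5 cells against 1 and 1.

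*Krt1*, the type II keratin that pairs with KRT10 in spinous filaments, had 63 UMIs with and 1 without *Krt10* in run 1, and 62 with and 10 without in run 2. The log2 fold change was 4.32 (SE 0.48, adjusted p = 0.0045 from edgeR). It was seen in 4 of 11 and 4 of 9 thinned cells with *Krt10* (6 and 6 unthinned), and in 0 of 9 and 5 of 39 without (1 and 6 unthinned). The UMIs were less concentrated than those of *Krtdap*, the leading cell holding 34.9% and 38.7%. *Mt4*, the metallothionein of stratified epithelia, had 44 UMIs with and 4 without *Krt10* in run 1, and 36 with and 1 without in run 2. Its log2 fold change was 4.48 (SE 0.64, adjusted p = 0.018 from edgeR), and 1 cell held 52.3% of the UMIs of the higher class in run 1.

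*Dmkn*, which encodes dermokine, a secreted protein of the spinous and granular layers, differed less in ratio and was already present without *Krt10*. Its level was 27.5 UMIs per 10,000 with and 7.68 without *Krt10* in run 1, and 33.3 with and 13.2 without in run 2. The log2 fold change was 1.49 (SE 0.23, adjusted p = 0.018 from edgeR). In thinned cells *Dmkn* was seen in 9 of 11 and 9 of 9 cells with *Krt10* and in 7 of 9 and 30 of 39 without, so the classes overlapped cell by cell. *Sbsn*, for the secreted protein suprabasin, had 33 and 4 UMIs in run 1 and 28 and 21 in run 2, with a log2 fold change of 2.10 (SE 0.46) and an adjusted p of 0.087 from edgeR, and did not pass. *Ptgs1*, for the prostaglandin synthase COX-1, was too low to test, with 6 and 0 UMIs in run 1 and 3 and 3 in run 2. Over the whole spinous list, 25 genes were in the files, 11 could be tested, and 4 passed, all higher. *Krtdap*, *Krt1*, *Mt4* and *Sbsn* had few UMIs outside the cells with *Krt10* and entered the test through that class. Such entry favours a higher value with *Krt10*. The median log2 fold change of the 11 was 1.02, beside -0.03 over all genes tested, and 9 of the 11 were higher in both runs (81.8%, beside 25.5% of all genes tested) and 0 lower in both. All 25 together summed to 175 UMIs per 10,000 with and 99.0 without *Krt10* in run 1, and to 213 with and 104 without in run 2.

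Late differentiation genes were near the limit of detection in both classes. *Ivl*, the gene whose promoter drives the Cre of these mice, had 0 UMIs in all 4 sums, and *Lor*, for the main protein of the cornified envelope, had 0, 1, 2 and 0 UMIs in the sums with and without *Krt10* of run 1 and with and without *Krt10* of run 2. The 19 late genes in the files summed to 3.89 and 2.65 UMIs per 10,000 in run 1 and to 3.11 and 2.86 in run 2. Only *Hopx* could be tested, and it did not pass (log2 fold change -0.45). At this depth a class difference in late genes was not detectable.

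*Krtdap*, *Dmkn* and *Sbsn* lie next to each other on chromosome 7 of the mouse genome (GRCm38.p6, RefSeq). *Sbsn* spans 30732674 to 30756134, *Dmkn* 30763756 to 30781066 and *Krtdap* 30787905 to 30791089, with no other RefSeq gene starting between *Sbsn* and *Krtdap*. Since these neighbours did not lie at the same level in cells without *Krt10*, where *Dmkn* had 29 and 175 UMIs and *Krtdap* 1 and 1, the sequence before their starts is shown, beside that of *Fam25c* and *Mt4* from other chromosomes. Each line gives the 250 bases before a start site, 5′ to 3′ on the gene's strand, from the RefSeq promoter table of GRCm38.p6, at chr7:30787655-30787904 (*Krtdap*, plus strand), chr7:30763506-30763755 (*Dmkn*, plus strand), chr14:34355394-34355643 (*Fam25c*, minus strand) and chr8:94136954-94137203 (*Mt4*, plus strand). Capitals mark TGAGTCA or its reverse complement, the core of the AP-1 element, and TATAAA or its reverse complement.
*Krtdap*: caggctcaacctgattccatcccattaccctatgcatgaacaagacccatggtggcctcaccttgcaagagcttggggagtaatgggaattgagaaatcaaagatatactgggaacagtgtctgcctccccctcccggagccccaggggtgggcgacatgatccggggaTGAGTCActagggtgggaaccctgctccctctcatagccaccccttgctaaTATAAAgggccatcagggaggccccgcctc
*Dmkn*: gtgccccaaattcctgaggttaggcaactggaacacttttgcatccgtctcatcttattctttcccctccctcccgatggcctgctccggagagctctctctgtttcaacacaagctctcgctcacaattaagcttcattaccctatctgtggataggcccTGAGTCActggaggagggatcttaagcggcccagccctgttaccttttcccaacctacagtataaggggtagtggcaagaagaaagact
*Fam25c*: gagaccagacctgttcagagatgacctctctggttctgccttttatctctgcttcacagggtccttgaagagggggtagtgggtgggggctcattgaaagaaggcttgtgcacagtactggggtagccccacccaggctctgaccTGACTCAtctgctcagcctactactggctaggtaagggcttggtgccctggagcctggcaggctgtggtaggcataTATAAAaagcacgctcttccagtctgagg
*Mt4*: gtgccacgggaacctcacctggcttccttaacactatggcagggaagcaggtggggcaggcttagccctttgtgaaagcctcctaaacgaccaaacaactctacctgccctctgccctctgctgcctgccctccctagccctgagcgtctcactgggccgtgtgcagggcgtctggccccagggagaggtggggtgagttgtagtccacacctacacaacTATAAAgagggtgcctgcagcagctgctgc
The AP-1 letters begin 81 bases before the *Krtdap* start, 89 before this *Dmkn* start and 105 before the *Fam25c* start, and the TATAAA letters 30, 29 and 30 bases before the starts of *Krtdap*, *Fam25c* and *Mt4*. Among all 32851 starts in the table, 4.46% held TGAGTCA and 12.4% TATAAA in the same window on either strand. Of the 9 called genes with *Sbsn* and *Krt14*, 8 had a sequence in the table: 3 held the AP-1 letters (*Krtdap*, *Dmkn*, *Fam25c*) and 4 held TATAAA (*Krtdap*, *Fam25c*, *Mt4*, *Serpinb2*). GCCNNNGGC, a core of AP-2 sites, was in 0 of these 8 genes and in 13.7% of all starts, CATTCC, a core of TEAD sites, was in 1 (*Krt14*) and in 12.6%, and the p53/p63 half-site was in 0 and in 7.13%. These are matches of letters, and no binding was measured.

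Of the other genes that were higher, *Itm2b* differed in the broadest set of cells. It encodes a transmembrane protein processed by furin, and its level was 37.5 UMIs per 10,000 with and 17.2 without *Krt10* in run 1, and 50.6 with and 22.5 without in run 2. The log2 fold change was 1.12 (SE 0.18, adjusted p = 0.020 from edgeR). Nearly every cell of both classes held *Itm2b*, with thinned medians of 7 and 3 UMIs in run 1 and of 10 and 4 in run 2. *Fam25c*, a gene of little known function, had 8.69 and 2.12 UMIs per 10,000 in run 1 and 18.5 and 3.83 in run 2, for a log2 fold change of 2.14 (SE 0.33, adjusted p = 0.019 from edgeR), and 1 cell gave 55.3% of the UMIs of the higher class in run 1. *Gm94* rested on few cells. It had 13 UMIs with and 0 without *Krt10* in run 1, at least 3.75-fold higher against a floor of 3 counts in that class, and 29 with and 1 without in run 2, a ratio of 75.1 (12.4 to 3065). Its UMIs came from 2 cells in each run, with 61.5% and 96.6% in a single cell, and the fitted log2 fold change of 5.99 (SE 0.89, adjusted p = 0.018 from edgeR) depends on the prior count. *Gm94* entered the test only through the class with *Krt10*, and such entry favours a higher value there.

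Both genes that were lower lie outside the keratin programme. *Thbs1*, for the matrix glycoprotein thrombospondin 1, had 7 UMIs with and 57 without *Krt10* in run 1, and 31 with and 227 without in run 2. The log2 fold change was -2.14 (SE 0.39, adjusted p = 0.037 from edgeR). In thinned cells it was seen in 3 of 11 and 2 of 9 with *Krt10* and in 5 of 9 and 24 of 39 without (5 and 2 against 5 and 26 unthinned), and 1 cell held 54.4% of its UMIs in the higher class of run 1. *Serpinb2*, for the intracellular protease inhibitor PAI-2, had 32 and 108 UMIs in run 1 and 58 and 305 in run 2, for a log2 fold change of -1.46 (SE 0.25, adjusted p = 0.030 from edgeR). The cells overlapped, with *Serpinb2* in 4 of 11 and 5 of 9 thinned cells with *Krt10* and in 7 of 9 and 20 of 39 without. Unthinned, these were 4 and 8 cells with and 8 and 22 without, so in run 2 the share of cells was not lower with *Krt10*. Other members of the list of basal and matrix regulators did not pass, among them the taurine transporter *Slc6a6* (log2 fold change -1.88, adjusted p = 0.18), the growth factor binding protein *Igfbp3* (-1.14, 0.31) and the matrix protein *Cyr61* (-1.07, 0.22) in the same edgeR fit. Of the 20 genes of that list 11 were tested, 1 passed (*Thbs1*), 9 were lower in both runs (81.8%, beside 28.6% of all genes tested) and 1 was higher in both (*Ly6d*). Their median log2 fold change was -0.90. *Slc6a6* entered the test through the class without *Krt10*, with 5.29 and 3.83 UMIs per 10,000 there against 1.83 and 0.78 with *Krt10*. Such entry favours a lower value with *Krt10*.

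**Figure D3:**
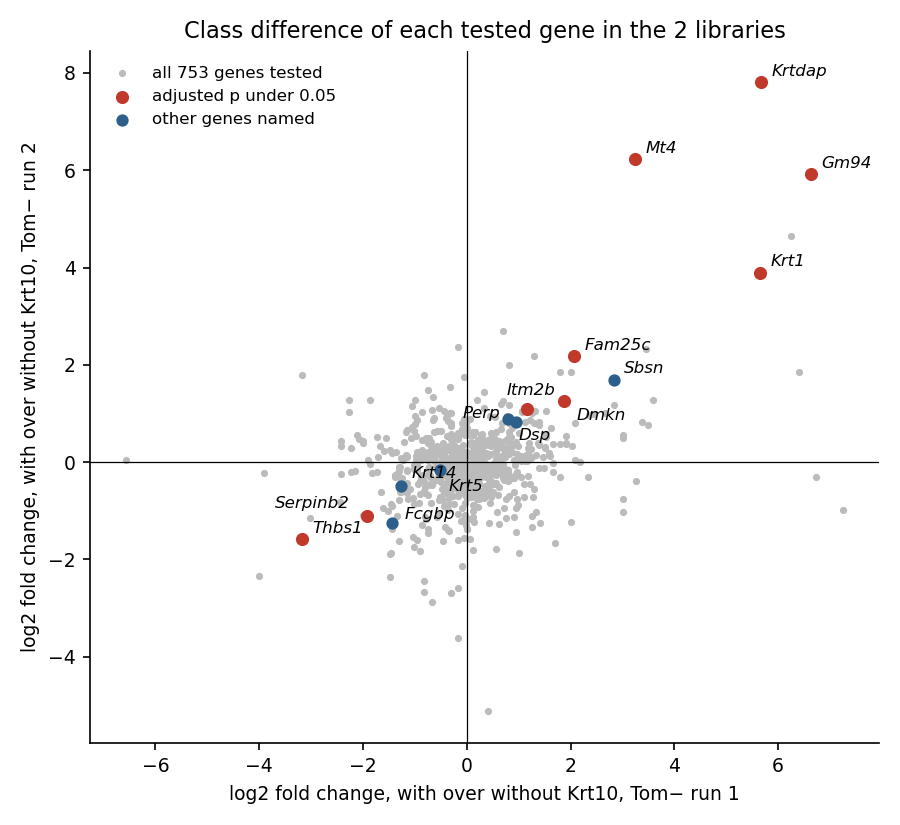
Log2 fold change of cells with over cells without *Krt10* in Tom− run 1 (horizontal axis) and run 2 (vertical axis) for the 753 genes tested, 1 point a gene. Red points passed an adjusted p of 0.05 and blue points are other genes named in the text. The 9 red points lie in the quadrants where both runs have the same sign, and over all genes 192 were higher and 215 lower in both runs, while 346 differed in sign.

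The basal keratins and adhesion genes were lower on the whole but none passed. *Krt14*, a keratin of the basal layer, had 78.9 UMIs per 10,000 with and 194 without *Krt10* in run 1, and 114 with and 151 without in run 2. The log2 fold change of -0.87 (SE 0.21) had an adjusted p of 0.14 from edgeR, the drop in run 2 being the smaller. *Krt5*, its partner, had 99.97 and 147 UMIs per 10,000 in run 1 and 130 and 138 in run 2 (log2 fold change -0.34, SE 0.18, adjusted p = 0.68 from edgeR). *Col17a1*, a collagen of the hemidesmosome, had 23.3 and 28.6 in run 1 and 17.3 and 29.5 in run 2 (log2 fold change -0.57, SE 0.21, adjusted p = 0.44 from edgeR). The transcripts behind the sorting antigens differed little, with log2 fold changes of -0.35 (SE 0.35) for *Itga6*, which encodes CD49f, and of 0.19 (SE 0.53) for *Ly6a*. Of the 19 genes of this list in the files 12 were tested, 10 were lower in both runs (83.3%, beside 28.6% of all genes tested), *Krt15* was higher in both, and the median log2 fold change was -0.60. In sum the list held 382 UMIs per 10,000 with and 509 without *Krt10* in run 1, and 454 with and 499 without in run 2.

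Desmosome genes leaned the other way without passing. *Perp*, for a tetraspan protein of desmosomes, had 43.5 UMIs per 10,000 with and 23.0 without *Krt10* in run 1, and 51.9 with and 27.8 without in run 2, for a log2 fold change of 0.88 (SE 0.18) and an adjusted p of 0.055 from edgeR. *Dsp*, for desmoplakin, which ties desmosomes to keratin filaments, had 17.4 and 10.3 in run 1 and 18.1 and 9.25 in run 2 (log2 fold change 0.84, SE 0.23, adjusted p = 0.19 from edgeR). Of the 7 desmosome genes tested 5 were higher in both runs (71.4%, beside 25.5% of all genes tested) and 0 lower in both. The median log2 fold change was 0.67. The list summed to 103 and 67.8 UMIs per 10,000 in run 1 and to 114 and 65.6 in run 2. *Perp* alone supplied 190 of the 452 UMIs with *Krt10* in run 1 and 267 of the 587 in run 2.

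Below the threshold, the remaining genes with the smallest p among those that were higher in both runs were *Gltp*, a glycolipid transfer protein (log2 fold change 2.68, adjusted p = 0.051), *Ly6g6e* (4.92, 0.14), *Dynlt3* (1.84, 0.17), *Ly6d* (0.76, 0.17), *Zfand5* (1.91, 0.30), *Rab25* (1.58, 0.37) and *Mbnl1* (1.63, 0.37), all from the edgeR fit. *Ly6g6e* had 10 and 0 UMIs in run 1 and 12 and 1 in run 2, so its fitted value depends on the prior count. Among those lower in both runs were *Fcgbp* (log2 fold change -1.34, adjusted p = 0.051), the stress keratin *Krt16* (-1.64, 0.12), the small GTPase *Gem* (-2.99, 0.13), *Calm2* (-0.93, 0.14), *Ifitm3* (-0.87, 0.16) and the clock-linked repressor *Bhlhe40* (-1.69, 0.19), from the same edgeR fit. *Fcgbp* was present in 4 of 11 and 4 of 9 thinned cells with *Krt10* and in 8 of 9 and 32 of 39 without. *Gltp*, *Ly6g6e*, *Dynlt3*, *Zfand5*, *Gem* and *Bhlhe40* entered the test through the class where they were higher, having few UMIs in the other. The same holds for *Rab25* and *Mbnl1*. In runs 1 and 2 without *Krt10*, *Rab25* stood at 1.59 and 1.28 UMIs per 10,000 and *Mbnl1* at 0.53 and 1.95.

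Transcription factors and Notch genes gave little to compare, since few reached the depth of the test. Of 25 epidermal transcription factors 7 were tested and 0 passed in edgeR, with a median log2 fold change of -0.04. *Trp63*, for the basal master regulator p63, had 9.61 and 10.1 UMIs per 10,000 in run 1 and 3.50 and 7.07 in run 2 (log2 fold change -0.54, SE 0.37), and the sign turned to 0.054 without the cells with markers of another type. *Csnk2b*, a subunit of casein kinase 2, had 10 and 5 UMIs in run 1 and 11 and 19 in run 2 (log2 fold change 0.63, SE 0.61). *Ovol1*, a repressor linked to the exit from proliferation, had 4 and 5 UMIs in run 1 and 14 and 12 in run 2, and was not tested. *Id1* had 7 and 2 UMIs in run 1 and 8 and 21 in run 2. *Hes1*, a Notch target, had 14 and 5 UMIs in run 1 and 6 and 11 in run 2, which is 3.20 and 1.32 per 10,000 in run 1 and 1.17 and 0.83 in run 2. Of the 16 Notch pathway genes, 2 were tested (*Notch1* and *Adam17*) and neither passed. Of 28 barrier lipid genes 2 were tested (*Ptges3* and *Hmgcs1*) and neither passed.

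Transcripts of dividing cells were present in both classes. The replication and mitosis list of 40 genes summed to 21.0 UMIs per 10,000 with and 13.5 without *Krt10* in run 1, and to 9.73 with and 19.9 without in run 2, so the 2 runs had opposite orders. At least 3 of these genes were seen in 3 of 11 and 2 of 9 thinned cells with *Krt10* (27.3%, interval 6.02% to 61.0%, and 22.2%, 2.81% to 60.0%) and in 3 of 9 and 9 of 39 without (33.3%, 7.49% to 70.1%, and 23.1%, 11.1% to 39.3%). Without thinning, the counts were 5 and 4 with and 5 and 15 without *Krt10*. *Mki67* or *Top2a*, which mark cells in cycle, were seen in 1 of 11 and 0 of 9 thinned cells with *Krt10* and in 2 of 9 and 1 of 39 without. The intervals overlap widely, and only *H2afz* of this list was deep enough to test (log2 fold change 0.18, adjusted p = 0.97 from edgeR).

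Genes known to respond to tissue dissociation gave no call. Of 20 genes tested 0 passed in edgeR, the median log2 fold change was 0.10, and the list summed to 255 and 249 UMIs per 10,000 in run 1 and to 275 and 250 in run 2. Higher in both runs were 10 of the 20 (50%, beside 25.5% of all genes tested), and lower in both were 2 (10%, beside 28.6%). *Fos*, an immediate early gene, had a log2 fold change of -0.13 and the heat shock gene *Hspb1* of 0.76 (adjusted p = 0.47 from edgeR). Of 72 ribosomal protein genes tested 0 passed, with a median of -0.09. Of the 10 metallothionein and redox genes tested only *Mt4* passed, and the ubiquitous metallothioneins *Mt1* (-0.55) and *Mt2* (-0.51) had log2 fold changes of the opposite sign. Of 10 S100 and annexin genes tested 0 passed, with a median of -0.09, the ends of the range being *S100a6* (-0.89) and *Anxa8* (0.59). At an unadjusted p under 0.05, 77 of the 753 genes stood.

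Within the class with *Krt10* the called genes were not spread alike. In the cells at or above 3 *Krt10* UMIs per 1000, *Krtdap*, *Krt1* and *Mt4* were each present in 2 of 2 cells of run 1 and 3 of 3 cells of run 2. In the cells between 0.5 and 3 per 1000, *Krtdap* was present in 1 of 9 and 2 of 6, *Mt4* in 1 of 9 and 3 of 6, and *Krt1* in 4 of 9 and 3 of 6. *Gm94* had 0 UMIs in all 15 of these low cells, and its UMIs with *Krt10* lay in 2 of 2 and 2 of 3 of the high cells. The 43 *Krtdap* UMIs of the low cells of run 1 came from 1 cell, which held 2.88 *Krt10* UMIs per 1000 and, with 9043 gene UMIs, was the deepest cell of that run. *Dmkn* stood at 27.8 and 26.9 UMIs per 10,000 in the low cells of runs 1 and 2, against 7.68 and 13.2 without *Krt10*. The same deep cell held 58 of the 100 *Dmkn* UMIs of the low cells of run 1, which stood at 15.6 without it. *Itm2b* stood at 30.5 and 42.1 in the low cells, and at 27.0 and 37.9 without the cell holding most of its UMIs in each run, against 17.2 and 22.5 without *Krt10*.

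*Krt14* and *Krt5* were lowest in the cells with the most *Krt10*. *Krt15*, which was higher with *Krt10* in both runs, was not divided by *Krt10* level. *Krt14* stood at 94.4 and 151 UMIs per 10,000 in the low cells of runs 1 and 2, against 194 and 151 without *Krt10*, and at 6.49 and 1.57 in the cells at or above 3 per 1000. *Krt5* stood at 116 and 150 in the low cells, against 147 and 138 without *Krt10*, and at 26.0 and 70.8 in the high cells. In run 2 the low cells, taken as a sum, thus stood near the cells without *Krt10* for both genes. For *Krt14* this rested on 1 low cell, which held 174 of 583 UMIs. Without it the low cells of run 2 stood at 123, against 147 in the class without *Krt10* less its own leading cell. For *Krt5* the low cells of run 2 stood at 139 without their leading cell. *Thbs1* and *Serpinb2* were already lower in the low cells. *Thbs1* stood at 1.94 and 8.01 in the low cells, against 15.1 and 17.1 without *Krt10*, and was at 0 UMIs in all 5 high cells. *Serpinb2* stood at 8.61 and 9.30 in the low cells against 28.6 and 22.9, and at 1.30 and 17.3 in the high cells, where 1 cell of run 2 held 19 of 22 UMIs. These groups were cut from the level of *Krt10* and hold 2 to 9 cells with *Krt10* a run, and they are given as values with no test.

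The class test was repeated without the 5 cells at or above 3 per 1000, a setting added after the data had been seen. Of 563 genes 7 passed, 6 of which were among the 9: *Krt1* (log2 fold change 3.34), *Fam25c* (1.63), *Dmkn* (1.32) and *Itm2b* (0.85) were higher, *Thbs1* (-1.77) and *Serpinb2* (-1.53) were lower, and *Perp* (0.78, adjusted p = 0.0079 from edgeR) joined them. *Krtdap*, *Mt4* and *Gm94* were then too low to be tested. Of the *Krt1* UMIs left with *Krt10*, 1 cell held 12 of 20 in run 1 and 1 cell 21 of 25 in run 2. These cells had 2.88 and 2.94 *Krt10* UMIs per 1000, just under the limit of 3. Without them *Krt1* stood at 2.96 and 1.12 UMIs per 10,000, against 0.26 and 0.75 in the class without *Krt10*.

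**Figure D4:**
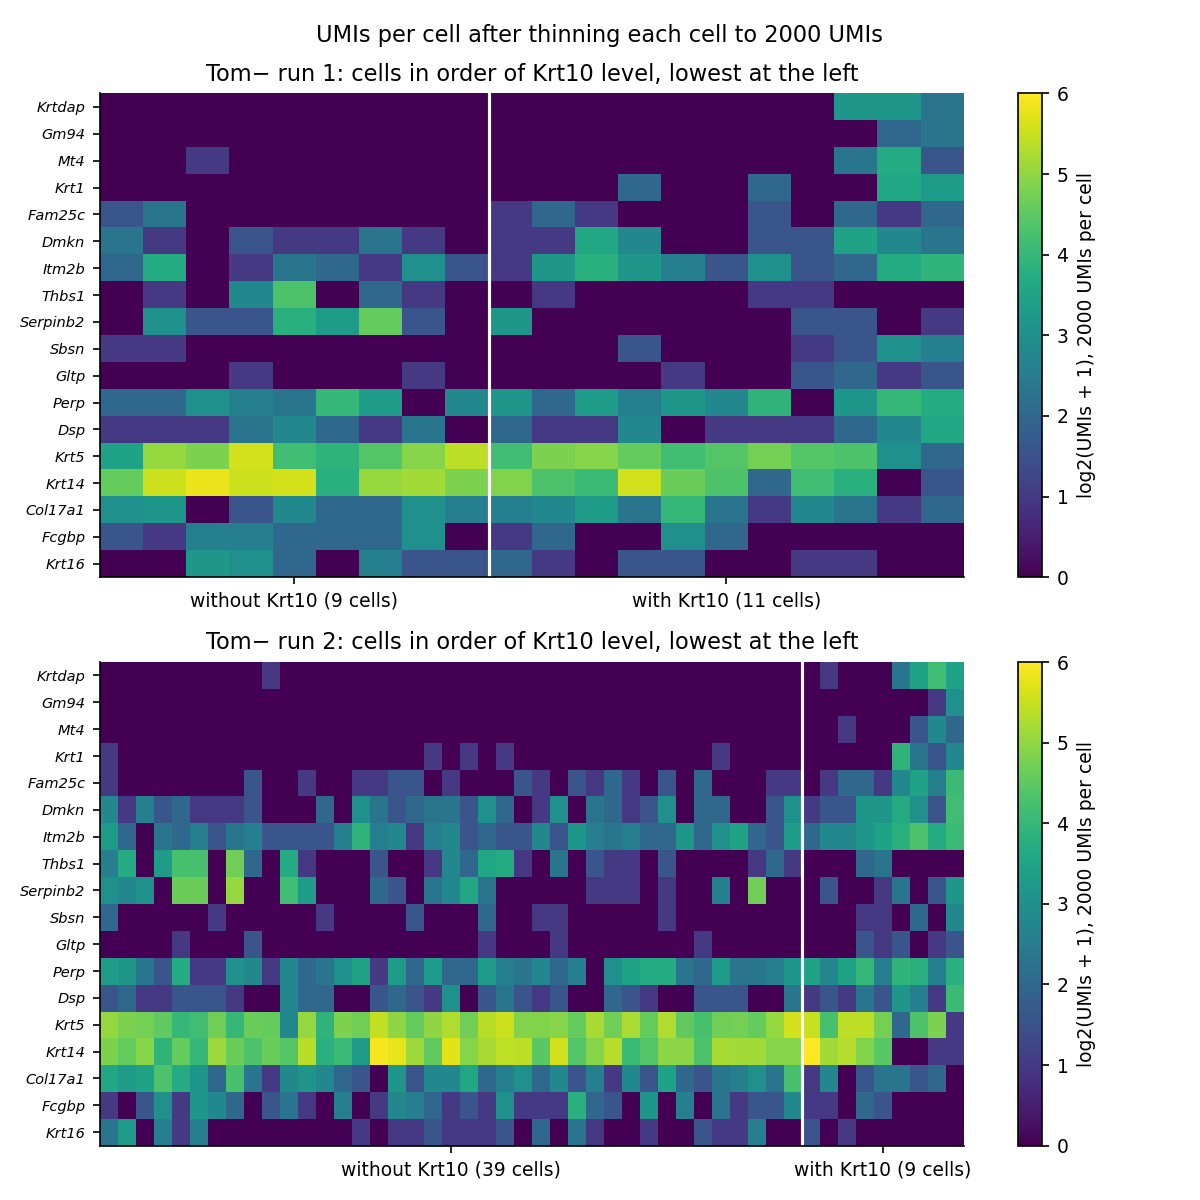
UMIs of 18 genes (rows) in the 68 Tom− cells (columns), as log2(UMIs + 1) after each cell was thinned to 2000 UMIs, with cells of each run in order of their *Krt10* level and a white line at the cut-off. *Krtdap*, *Gm94*, *Mt4* and *Krt1* are filled mainly at the right end, among the cells with the highest *Krt10* level, while *Itm2b*, *Perp* and *Krt5* are seen in nearly every cell of both classes.

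Cell by cell, the spinous genes were rarely together without *Krt10*. At least 3 of *Krt1*, *Krtdap*, *Sbsn*, *Mt4* and *Ptgs1* were seen in 4 of 11 (36.4%, interval 10.9% to 69.2%) and 3 of 9 (33.3%, 7.49% to 70.1%) thinned cells with *Krt10*. Without *Krt10* the counts were 0 of 9, for which a limit of 3 counts allows a share of up to 33.3%, and 0 of 39, for which it allows up to 7.69%. The upper ends of the 95% Clopper-Pearson intervals were 33.6% and 9.03%. Without thinning, the counts were 4 of 11, 4 of 9, 0 of 9 and 0 of 39. None of the 5 genes was seen in 5 of 11 and 1 of 9 thinned cells with *Krt10* and in 6 of 9 and 26 of 39 without. Without thinning these were 4 of 11 and 1 of 9 against 3 of 9 and 24 of 39, so that the 2 classes of run 1 lay close together. *Krt14* was present in 10 of 11 and 7 of 9 thinned cells with *Krt10* and in all 9 and all 39 without, so most cells with *Krt10* also held *Krt14* RNA.

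Non-traced cells with *Krt10* were then set against traced cells chosen by the same cut-off, 28 cells of Tom+ run 1 and 56 of Tom+ run 2. The adjusted p was under 0.05 for 4 of the 1489 genes tested (0.269%), all of them higher in Tom+ cells. Each run holds 1 library of either sort, and with the run as a block 11 genes passed, 7 higher and 4 lower in Tom+ cells, the same 4 among them. *Sbsn* stood at 7.55 UMIs per 10,000 in the first and 5.45 in the second Tom− library, against 28.8 and 26.0 in the Tom+ libraries (log2 fold change 2.07, SE 0.31, adjusted p = 0.00052 from edgeR). *Krtdap* stood at 14.6 and 21.0 in Tom− and at 60.2 and 63.3 in Tom+ cells (log2 fold change 1.78, SE 0.29, adjusted p = 0.00072 from edgeR). *Ly6g6c*, a gene of the LY6 family, stood at 1.37 and 1.36 against 9.75 and 9.01 (log2 fold change 2.76, SE 0.43), and *Calm5*, a calmodulin-like gene of differentiating keratinocytes, at 4.80 and 8.56 against 23.8 and 24.6 (log2 fold change 1.83, SE 0.32). The cut-off did not equalise *Krt10* itself, whose median over the cells with it was 1.07 and 1.40 per 1000 in the Tom− libraries of runs 1 and 2 but 6.27 and 4.97 in the Tom+ ones, and its part in these differences was not tested. After each cell was thinned to 2000 UMIs, 0 of 607 genes passed in edgeR, with 35 at an unadjusted p under 0.05.

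Of the 9 genes called between the classes of Tom− cells, only *Krtdap* also passed in this comparison. *Thbs1* (log2 fold change of Tom+ over Tom− -0.26, SE 0.46) and *Serpinb2* (0.35, SE 0.32) each had an adjusted p of 0.999 from edgeR, and *Itm2b* stood at 37.5 and 50.6 in Tom− and at 52.4 and 47.1 UMIs per 10,000 in Tom+ cells. *Krt1* had a log2 fold change of 1.25 (SE 0.30, adjusted p = 0.078 from edgeR) and did not pass. The same *Krt10* split was also laid over the traced cells, where only 7 cells of run 1 and 2 of run 2 lacked *Krt10*, and the difference of the differences was not fitted, since the minimum of 5 cells in each sum was not met. As values, *Krtdap* stood at 60.2 with and 1.75 without *Krt10* in Tom+ run 1 and at 63.3 and 2.75 in Tom+ run 2, *Itm2b* at 52.4 and 22.7 and at 47.1 and 19.3, and *Krt14* at 19.5 and 241 and at 86.4 and 248. *Serpinb2* stood at 10.2 and 11.9 in Tom+ run 1 and at 13.6 and 11.0 in Tom+ run 2. Whether the *Krt10* classes differ more in one sort than in the other was not tested.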

How the data were processed

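The authors captured single cells on Fluidigm C1 chips and deposited raw UMI counts per gene and well, beside rows for spike-ins and reporters. The labels name mm10 and GRCm38 as the genome, and the aligner is not given in the sources used here. Each table holds 24378 gene rows, 1207 of them carrying a locus suffix, and rows were taken as genes.

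Wells with at least 2000 gene UMIs were kept. Wells with very many UMIs stayed in, no doublet caller was run, and no well name is shared between libraries. Counts of the kept cells, without the *Krt10* row, were summed per class and library. The test was edgeR's (4.0.16, R 4.3.3) quasi-likelihood test after filterByExpr and TMM, with library as a block and a Benjamini-Hochberg threshold of 0.05. Sums varied by 20.1% beyond counting noise (common biological coefficient of variation). On simulated sums of this comparison (794 genes tested), 91.1% of 4-fold and 99.0% of 16-fold changes were recovered, with 0 false among 177 calls. There 90 genes changed 4-fold and 96 changed 16-fold, and every gene was given the same variation. In the real sums 9 of 753 genes passed, so these shares do not give the recovery there. The tested genes held 60.7% to 64.7% of the UMIs. Traced and non-traced cells with *Krt10* were compared without a run term. The 2 libraries differed beyond counting noise within each class (chi-square per degree of freedom 2.31 with and 2.29 without *Krt10*). Levels are UMIs per 10,000 gene UMIs, *Krt10* left out.

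For shares of cells, each cell was thinned to 2000 UMIs with seed 1, and intervals are 95% Clopper-Pearson. Genes were named by rule: those that passed, those of the study, and up to 10 in each direction with the smallest p and the same sign in both runs. The cells, classes and gene lists were chosen with earlier results of these data known, so no count over a list is independent evidence. The alternatives were other normalizations, tests, filters, UMI minima, *Krt10* cut-offs and thinning seeds, and leaving out cells or libraries. Well counts of the published datasets with which the study merged these cells were not analysed here.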

Additional observations from a re-analysis of the deposited data

Results flagged for a closer look

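The row of the Cre transgene, which no comparison uses, held 18 UMIs in the kept cells of Tom− run 2, above the limit of 3 counts and above every reporter row not carried by these mice, of which the highest held 1. These UMIs lay in 3 of 9 cells with *Krt10* (6 UMIs) and in 8 of 39 cells without it (12 UMIs). In Tom− run 1 the row held 3 UMIs, and the Tomato row held 0 and 3 UMIs in the 2 runs.

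*Thbs1* was lower with *Krt10* in both Tom− libraries, while its values in both Tom+ libraries lay the other way within counting error. The difference, with minus without *Krt10*, was -13.5 UMIs per 10,000 in the first Tom− library and -11.0 in the second. The Tom+ libraries gave 1.04 (run 1) and 1.85 (run 2). The difference between the sorts was not tested, since the class without *Krt10* of Tom+ run 2 holds 2 cells. In Tom+ run 1 there were 34 UMIs with and 6 without *Krt10*, a ratio of 1.59 (exact 95% counting interval 0.66 to 4.64), and in Tom+ run 2 108 with and 2 without, a ratio of 2.01 (0.54 to 16.8). The level without *Krt10* was 15.1 and 17.1 for the Tom− libraries, against 1.75 and 1.83 for the Tom+ libraries.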

How the results depend on the processing

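The number of genes called between Tom− cells with and without *Krt10*, 9 as reported, depended on the processing. It was 14 with no replicate block (9 higher, 5 lower), 1 with DESeq2 size factors, 24 with limma-voom, 17 with no filter on low counts, 26 when cells down to 1000 UMIs were kept, 1 with a *Krt10* cut-off of 1 UMI, 5 with a cut-off of 1 per 1000, 2 for cells with no *Krt10* UMI against cells above the cut-off, 0 without the 5% of cells with the most UMIs, and 24 without cells with markers of another type. Leaving out the highest *Krt10* cell of each library, added after seeing the data, gave 17. The cause was not tested. The 2 sums of a library come from the same chip and are paired by it. All 9 genes kept their direction in every setting that gave them a value. *Krtdap* passed in 13 of 14 tested settings, with log2 fold changes from 5.67 to 10.3 over these settings and the single runs, and *Krt1* in 12 of 15. *Serpinb2* passed in 8 of 15, *Mt4* in 8 of 14 and *Gm94* in 7 of 12. Among genes that did not pass, *Trp63* turned sign, to 0.054, without cells with markers of another type, and several differed in sign between the single runs, among them *Ly6a*, *Notch1*, *H2afz* and *Fos*. The count between Tom+ and Tom− cells with *Krt10*, 4 as reported, was 11 with the run as a replicate block (7 higher, 4 lower), 7 with no filter and 0 with thinned counts, and from 5 to 14 when a library was left out, 14 without Tom− run 1 and 9 without Tom+ run 2; the lone sample of a sort is then assumed to vary like the others. The same 4 genes were among the calls in each of these fits but the thinned one. A minimum of 5000 UMIs and a cut-off of 3 per 1000 left 1 and 2 cells in a class and were not run, nor was the difference of the differences, under the same minimum of 5 cells. At 5000 UMIs the share of cells with *Krt10* was 25.0% and 50.0% in runs 1 and 2. Depth limits the test to 753 of 24378 genes.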
